A study of Mus musculus with 2040 samples.

Results

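Lhx2, Emx2, Emx1, Otx1, Meis2, Dmrta2 and Nr2f1 are transcription factors that pattern the embryonic telencephalon, the part of the forebrain that forms the cerebral cortex. They were taken as a list of 7 genes out of the 32245 gene columns of a single-cell expression table. The list was chosen with earlier results of these data known and was followed through sorted glia and neurons of the mouse brain. The table held 2040 cells, each flow sorted for the yellow fluorescent protein SYFP2 from C57Bl/6J mice (age not given in the sources used here) given a single adeno-associated virus (AAV) in which a named enhancer or promoter drove the reporter. There were 47 mice and 30 vectors. The primary visual cortex (VISp) gave 1785 cells of 41 mice and 27 vectors. Midbrain and hindbrain (MB/HB) gave 82 cells of 2 mice with MGT_E160m and 92 cells of 2 mice with eHGT_381h. CBX (cerebellar cortex) gave 81 cells of 2 mice, both with eHGT_375m. All mice carried a vector and each vector went into a single tissue, so tissue and vector cannot be told apart in any comparison between tissues. A vector also selects which cells of a tissue are seen.

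In the embryo, such factors divide the neural tube into territories. Lhx2 acts as a selector of cortical identity, Emx2 and Nr2f1 are expressed in gradients across the cortical sheet, and the hindbrain and cerebellum are marked by other homeobox families such as Hox, Irx, En and Zic. Astrocytes are born from the same regional progenitors as neurons and are known to keep part of this regional code, whereas cortical oligodendrocytes arise from several ventral and dorsal sources.

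Stretches from the start-site windows of Lhx2, Dmrta2 and Emx2 are shown because these genes were read in VISp astrocyte-like cells and were at or near 0 in the other tissues. RefSeq windows (GRCm38.p6, from 250 bases before the annotated start) are 300 bases long and were matched by symbol for 6 of the 7 genes, with 8 windows in all, since Lhx2 and Nr2f1 have 2 each. The Lhx2 and Dmrta2 stretches are the 250 bases before that start. The Emx2 stretch is the last 26 bases of its window, after that start and within the gene. A GC box (GGGCGG, either strand) is in capitals in the first sequence, a CCAAT box (CCAAT, either strand) in the second and the homeodomain core TAATTA, which reads the same on both strands, in the third.
Lhx2, chr2:38339031-38339280, plus strand: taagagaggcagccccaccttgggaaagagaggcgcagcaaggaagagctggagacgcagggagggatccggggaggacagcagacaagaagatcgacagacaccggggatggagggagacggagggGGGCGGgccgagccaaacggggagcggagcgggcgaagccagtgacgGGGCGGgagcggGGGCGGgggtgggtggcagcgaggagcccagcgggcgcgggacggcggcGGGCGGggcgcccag
Dmrta2, chr4:109977775-109978024, plus strand: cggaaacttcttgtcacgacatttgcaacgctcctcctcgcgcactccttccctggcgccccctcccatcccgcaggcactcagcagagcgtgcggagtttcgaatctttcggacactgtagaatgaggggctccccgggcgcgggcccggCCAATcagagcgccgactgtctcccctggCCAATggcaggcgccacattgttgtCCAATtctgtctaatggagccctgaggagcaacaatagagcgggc
Emx2, chr19:59458714-59458739, plus strand: tgatccccgcacTAATTAggctcatg
The Lhx2 stretch held 4 GC boxes and the Dmrta2 stretch 3 CCAAT boxes, with no overlap between matches. The second Lhx2 window (chr2:38351058-38351357) held none of the motifs searched. Of all 32851 windows of 300 bases, 35.7% held a GC box, 37.4% a CCAAT box and 5.29% TAATTA. Emx2 was the only one of the 6 genes with TAATTA in its window. None of the 8 windows held the MEIS core TGACAG, the OTX core GGATTA or the nuclear receptor half-site AGGTCA on either strand, which were in 19.2%, 7.06% and 16.3% of all windows. These are matches of letters and not binding sites.

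Cell classes were rebuilt from markers without using the 7 genes. Astrocyte-like cells numbered 739 in VISp (19 mice), 150 in MB/HB (4 mice) and 81 in CBX (2 mice). There were 938 oligodendrocyte-like cells in VISp, of which 22 mice had at least 10, and 60 neuron-like cells in VISp. Only 2 VISp mice, both with MBP_promoter, had at least 10 neuron-like cells. All 60 of these neurons had a read of Gad1 or Gad2, markers of GABAergic neurons, so cortical glutamatergic neurons, the classical site of Emx1 in cortex, were not represented in the class. A further 48 VISp cells carried markers of both neurons and oligodendrocytes and stayed unnamed. Median depth was 431572 reads per cell in VISp astrocyte-like cells, 412596 in MB/HB, 375425 in CBX, 443038.5 in oligodendrocyte-like and 432836.5 in neuron-like cells. Of the 12 astrocyte markers, 11 were detected in most astrocyte-like cells of VISp and of MB/HB and 12 in CBX. Levels below are means over the cells of a class in 1 mouse, in counts per 1000000 reads (CPM), and tests used log2(mean CPM + 1) over mice that had 10 or more cells of a class.

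**Figure D1:**
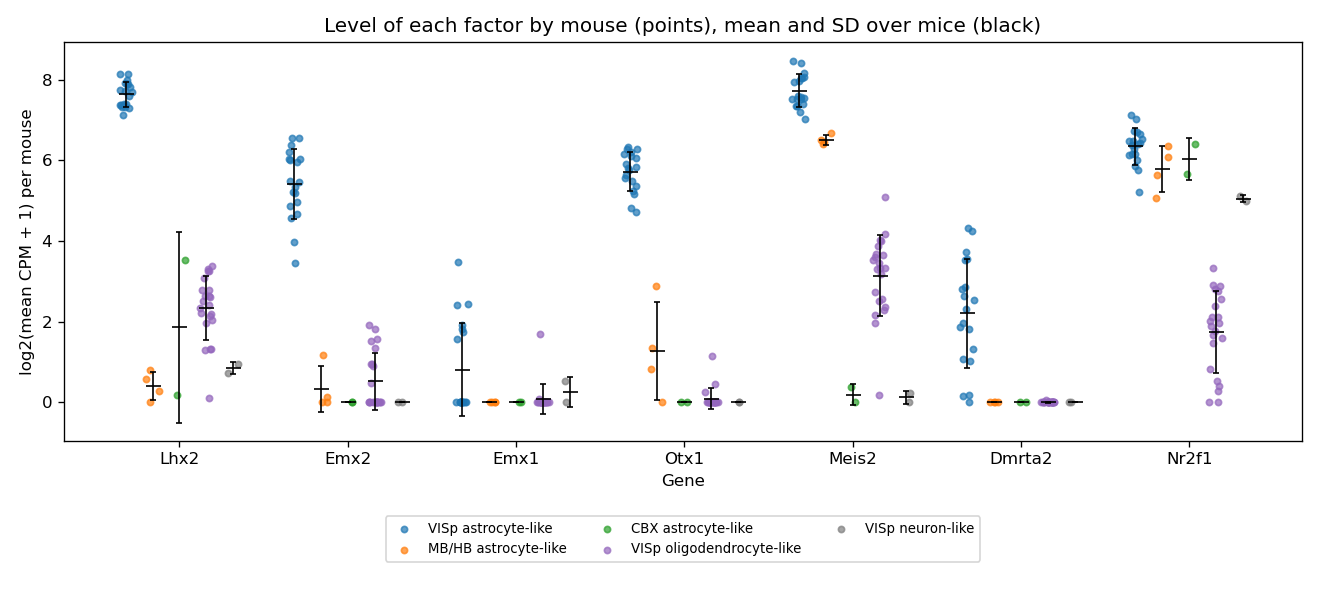
Level of each factor, as log2(mean CPM + 1), with 1 point for each mouse that had 10 or more cells (points are spread sideways for legibility). Black bars give the mean and SD over mice. Lhx2 in VISp astrocyte-like cells was 7.64 ± 0.31 (SD, n = 19), above every mouse of the other groups, while Nr2f1 overlapped between the 3 tissues.

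Lhx2 (chr2:38339281-38369733, plus strand, GENCODE M21 on GRCm38 as for all genes), a LIM-homeodomain factor, was the strongest of the 7 per kilobase of exon in VISp astrocyte-like cells. Its mean level was lowest at 137.6 CPM, in the middle at 207.8 CPM and highest at 281.02 CPM over the 19 mice. In MB/HB the 4 mice stood at 0.726, 0.483, 0.210 and 0 CPM. In CBX they stood at 0.137 and 10.6 CPM. No mouse of either tissue came near the VISp range. Relative to VISp, the log2 level of MB/HB differed by -7.23 (SE 0.32, limma adjusted p 2.76e-17) and that of CBX by -5.78 (SE 0.43, limma adjusted p 1.15e-11).

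The CBX value of Lhx2 depended on 1 cell. In the CBX mouse with 38 astrocyte-like cells a single cell had 394.9 CPM of Lhx2, and without it the mean of that mouse fell from 10.6 to 0.193 CPM. That cell lay in a VISp astrocyte-like cluster that held no other CBX cell. It had reads of 83.3% of the endothelial, 50.0% of the neuron, 33.3% of the astrocyte and 33.3% of the oligodendrocyte markers. It had no read of Zic1, Irx5, Pax3, En2, Irx2 or Nr2f1. Leaving out cells whose tissue made up under 10% of their cluster, a choice made after the data were seen, gave a CBX minus VISp difference in Lhx2 of -7.42 (SE 0.28, limma adjusted p 7.20e-19). The difference between CBX and MB/HB was 1.45 (SE 0.50, limma adjusted p 0.0726) with those cells and -0.20 (SE 0.32, limma adjusted p 0.829) without them. Without the CBX mouse that lacked such a cell it was 3.13 (SE 0.42, limma adjusted p 5.18e-06).

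Emx2 (chr19:59458372-59465357, plus strand), a homeobox factor of the caudal and medial cortex, had a wider spread among VISp mice. Its astrocyte-like mean ran from 9.88 CPM through a median of 43.4 to 93.4 CPM. It was 0.0985, 1.24, 0 and 0 CPM in the MB/HB mice and 0 in both CBX mice. The lowest VISp mouse thus still lay above every MB/HB and CBX mouse. The log2 difference was -5.10 for MB/HB (SE 0.46, limma adjusted p 5.27e-10) and -5.42 for CBX (SE 0.62, limma adjusted p 6.74e-08). With reads pooled over cells, Emx2 stood at 45.5 CPM in VISp, 504.9-fold a floor of 3 reads over the CBX group (0.0901 CPM). That floor counts reads as independent, although positive VISp cells held a median of 76.1 CPM. It therefore sets no lower limit on the difference over cells or mice.

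Otx1 (chr11:21994764-22002897, minus strand), an orthodenticle homeobox factor of forebrain and midbrain, followed the same order. VISp mice ran from 25.4 CPM through 55.2 to 80.2 CPM. The MB/HB mice had 0.775, 1.54, 6.37 and 0 CPM, and both CBX mice had none. The groups did not overlap. The log2 difference was -4.46 for MB/HB (SE 0.37, limma adjusted p 1.09e-10) and -5.72 for CBX (SE 0.50, limma adjusted p 3.40e-10). The pooled level of Otx1 in VISp was 615.7-fold the same CBX floor, with the same limit.

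Meis2 (chr2:115863064-116065839, minus strand), a homeodomain factor of the TALE class that acts with other homeodomain proteins, separated the 3 tissues. VISp mice ran from 129.8 CPM through 187.9 to 355.8 CPM. The MB/HB mice were close together at 90.2, 100.7, 86.1 and 83.5 CPM, while the CBX mice had 0.296 and 0 CPM. The 3 ranges did not overlap. The log2 difference was -1.22 between MB/HB and VISp (SE 0.21, limma adjusted p 1.20e-04), -7.54 between CBX and VISp (SE 0.29, limma adjusted p 7.33e-19) and -6.32 between CBX and MB/HB (SE 0.34, limma adjusted p 1.44e-14). Meis2 was the only 1 of the 7 that differed between CBX and MB/HB in that fit, where 4.06% of all genes tested were called lower in CBX and 3.27% higher.

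Nr2f1 (chr13:78188973-78199757, minus strand), the nuclear receptor COUP-TFI that sets area boundaries in the developing cortex, was not restricted to the cortex. VISp mice ran from 36.2 CPM through 84.1 to 139.6 CPM. The MB/HB mice had 66.5, 48.6, 80.9 and 32.4 CPM and the CBX mice 83.4 and 49.9 CPM. The 3 tissues overlapped. The log2 difference from VISp of MB/HB was -0.56 (SE 0.26, limma adjusted p 0.177) and that of CBX was -0.31 (SE 0.35, limma adjusted p 0.784), and neither passed the threshold. When log2(CPM + 1) was averaged over cells, which weights the share of positive cells more, the MB/HB difference was -1.60 (limma adjusted p 0.00379). The difference of CBX from MB/HB was then 2.38 (limma adjusted p 0.00305), so the call for Nr2f1 changed with how cells were averaged. That averaging also raised the share of all genes called for CBX minus MB/HB, most of them higher in CBX. The median number of genes detected per astrocyte-like cell was 5323 in CBX, 4326 in VISp and 3938.5 in MB/HB.

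Dmrta2 and Emx1 were low even in VISp. Dmrta2 (chr4:109978053-109983687, plus strand), a doublesex-related zinc finger factor needed for the cortical midline, ran from 0 through a median of 3.93 to 18.9 CPM over VISp mice and was 0 in all 4 MB/HB and both CBX mice. Its log2 difference was -2.20 for both tissues, with a limma adjusted p of 0.0268 for MB/HB (SE 0.67) and 0.146 for CBX (SE 0.91). The MB/HB call was lost when any 1 of the 4 MB/HB mice was left out (limma adjusted p 0.0599 to 0.0756). Emx1 (chr6:85187438-85204462, plus strand), the paralogue of Emx2 and a standard marker of the dorsal telencephalic lineage, was at 0 in 12 of the 19 VISp mice and reached 10.2 CPM in the highest, a mouse with eHGT_376h. It was 0 in all MB/HB and CBX mice, and its log2 difference of -0.81 passed the threshold in neither tissue (limma adjusted p 0.403 for MB/HB and 0.690 for CBX). Of the 7, Lhx2, Emx2, Otx1, Meis2 and Nr2f1 were thus read in VISp astrocyte-like cells of all 19 mice. Dmrta2 was low in these cells, and Emx1 was at 0 in most of the mice. All 7 were lower in VISp oligodendrocyte-like cells, as shown further on. No earlier stage was compared, so whether expression was retained from development was not tested.

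Counted together, 5 of the 7 were called lower in MB/HB than in VISp and 4 of the 7 in CBX, and none was called higher. Over all 2658 genes tested, 5.23% were called lower and 6.92% higher in MB/HB, and 4.70% lower and 5.04% higher in CBX. The median log2 difference of the 7 was -2.20 in MB/HB and -5.42 in CBX, beside -0.01 and -0.07 over all genes tested. The comparisons share the VISp mice. The 7 were chosen with earlier results of these data known, so the counts and medians here are descriptions and no test of the list. Summed oligodendrocyte markers in astrocyte-like cells ran from 171.1 to 1311 CPM over VISp mice, 838.6 to 6262 CPM in MB/HB and 1935 to 2224 CPM in CBX, and their part in the results was not tested. Leaving out cells with RNA of another class changed no call of the 7. Summed oligodendrocyte markers then still ran from 171.1 to 835 CPM in VISp, 818.1 to 3312 CPM in MB/HB and 1828 to 2230 CPM in CBX. The unchanged calls are thus no test of their part.

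Plate AB-S40319 held astrocyte-like cells of more mice than any of the 4 other plates shared by tissues, and gives a view within 1 plate. On it, Lhx2 averaged 174.8 CPM in 160 VISp cells of 5 mice, 0.138 CPM in 34 MB/HB cells of 3 mice and 0.275 CPM in 26 CBX cells of 1 mouse. Meis2 averaged 167.9, 91.6 and 0 CPM and Nr2f1 71.1, 24.1 and 60.96 CPM in the same order. With so few mice, the Lhx2 differences were still called (limma adjusted p 2.32e-04 for MB/HB and 0.00394 for CBX). The calls for Emx2 (limma adjusted p 0.0718 for MB/HB and 0.236 for CBX), Otx1 in CBX (limma adjusted p 0.0665) and Meis2 and Dmrta2 in MB/HB (limma adjusted p 0.274 and 0.304) were lost on this plate, with every difference in the same direction. The gap in Nr2f1 between MB/HB and VISp on this plate was smaller on the others. Nr2f1 averaged 95.9 CPM in MB/HB beside 101.3 in VISp on AB-S40304, 73.98 beside 77.999 on AB-S40305 and 68.2 beside 60.2 on AB-S40318. Over those 4 plates, Lhx2 was at 149.4 to 232.2 CPM in VISp and at 0 to 0.307 CPM in MB/HB, and Meis2 was at 71.9 to 91.9 CPM in MB/HB and at most 0.362 CPM in CBX. The CBX cells of AB-S40318 had 32.9 CPM of Lhx2, all from the single Lhx2-rich cell, and those of the other plates at most 0.453 CPM. The single CBX mouse is assumed in the AB-S40319 fit to vary like the mice of the other tissues.

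**Figure D2:**
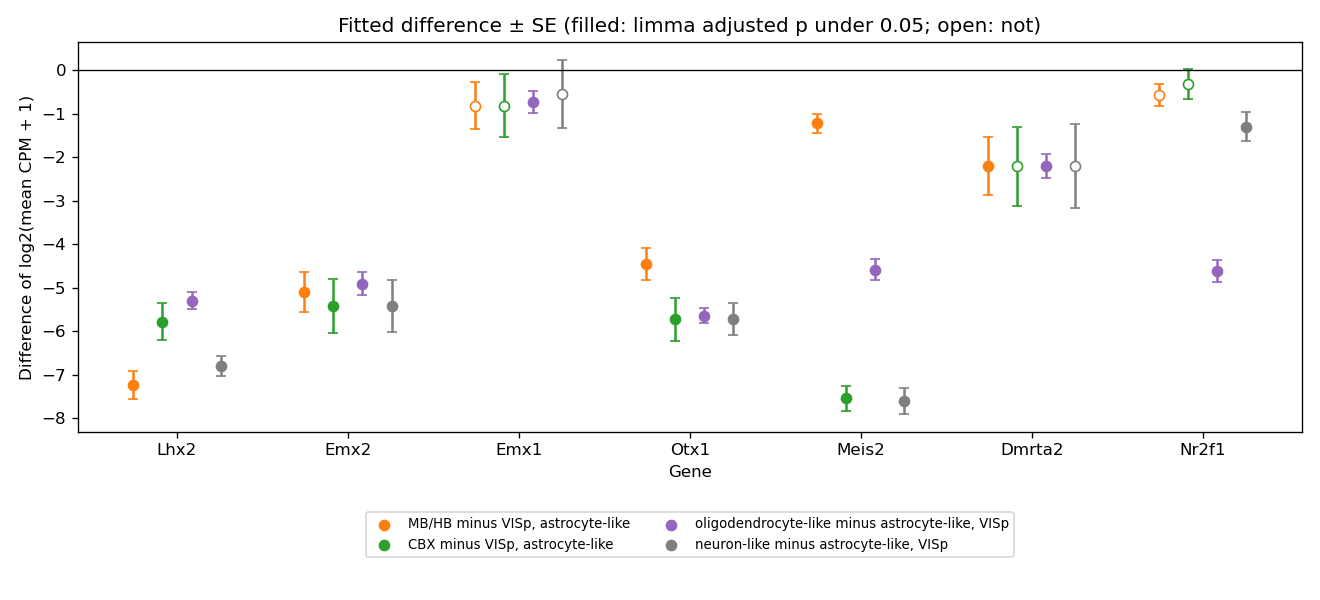
Fitted difference of log2(mean CPM + 1) with its standard error for each factor in 4 comparisons, all against VISp astrocyte-like cells. Filled points passed a limma adjusted p of 0.05 and open points did not. Meis2 lay at -1.22 in MB/HB but at -7.54 in CBX, and Nr2f1 lay near 0 in both tissues.

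The share of cells with at least 1 read gives a second view of each gene. In VISp astrocyte-like cells, Meis2 was read in 83.2% of 739 cells, Lhx2 in 81.6%, Nr2f1 in 73.3%, Emx2 in 44.7%, Otx1 in 33.96%, Dmrta2 in 10.8% and Emx1 in 1.76%. Exact 95% intervals (Clopper-Pearson, counting error only) were 80.3% to 85.8% for Meis2 and 78.6% to 84.3% for Lhx2, so the order of these leading genes was not resolved. Otx1 and Emx2 were therefore read in a minority of cells while their positive cells held a median of 126.2 and 76.1 CPM. For Lhx2 the positive cells held a median of 215.02 CPM. Over mice, the Lhx2 share ran from 60.5% through 80.4% to 95.7%, and the Emx2 share from 17.6% through 43.8% to 72.7%. With each cell thinned to 100000 reads the shares were 79.5% for Lhx2, 79.8% for Meis2, 65.9% for Nr2f1, 40.98% for Emx2, 32.6% for Otx1, 8.82% for Dmrta2 and 1.22% for Emx1.

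In MB/HB astrocyte-like cells, Meis2 was read in 55.3% (83 of 150) and Nr2f1 in 46.7%, while Lhx2 was read in 4.0%, Otx1 in 2.67% and Emx2 in 1.33%. No MB/HB astrocyte-like cell had a read of Emx1 or Dmrta2, and 0 of 150 cells allows a share of up to 2.0% by the limit of 3 cells over the total, or 2.43% as the upper end of the exact 95% interval. In CBX, Nr2f1 was read in 92.6% (75 of 81) against 4.94% for Meis2 and 3.70% for Lhx2. The 4 CBX cells with Meis2 held at most 4.92 CPM. Emx2, Emx1, Otx1 and Dmrta2 had no read in CBX, where 0 of 81 cells allows a share of up to 3.70% by the limit of 3 cells, or 4.45% by the exact interval. After thinning to 100000 reads, the Nr2f1 share was 65.9% in VISp, 41.3% in MB/HB and 87.7% in CBX, so CBX held the largest share of cells with Nr2f1 although its mouse means lay within the VISp range. The median number of genes detected per cell, before thinning, was also highest in CBX and lowest in MB/HB. Its part in these shares was not tested. Positive cells had a median Nr2f1 level of 51.2 CPM in CBX, 73.8 CPM in MB/HB and 68.5 CPM in VISp.

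**Figure D3:**
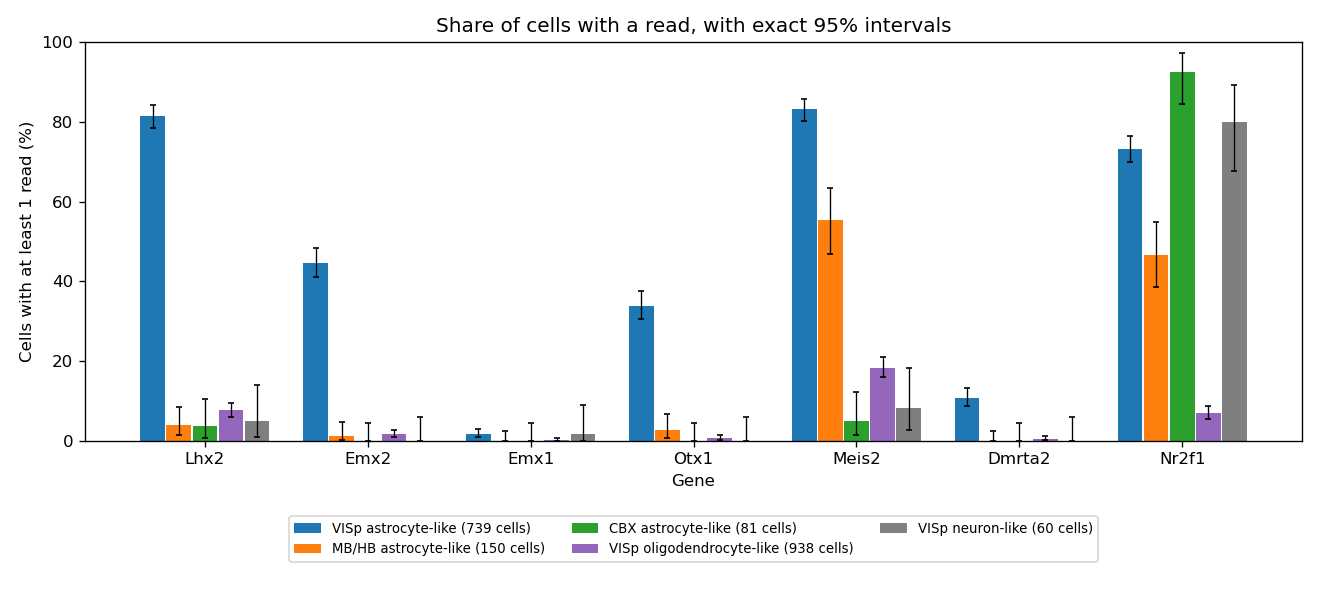
Share of cells with at least 1 read of each factor, in percent, by class and tissue. Bars start at 0 and error bars are exact 95% intervals for counting error. Nr2f1 was read in 92.6% of CBX astrocyte-like and 80% of VISp neuron-like cells, whereas Emx2, Otx1 and Dmrta2 had no read in either.

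Levels of different genes can be compared per kilobase of annotated exon. In VISp astrocyte-like cells, Lhx2 stood at a median of 47.3 CPM per kilobase over mice (31.3 to 63.97) and was above the next gene in 19 of 19 mice. Nr2f1 (median 16.5, 7.11 to 27.4), Meis2 (15.6, 10.8 to 29.5) and Emx2 (14.5, 3.29 to 31.1) came next. Their ranges overlapped, and Nr2f1 exceeded Meis2 in 8 of 19 mice, so these neighbours did not differ beyond their spread. Otx1 (10.2, 4.68 to 14.8) was above Dmrta2 (1.35, 0 to 6.45) in 19 of 19 mice. Emx1 was last, with a median of 0.

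Most VISp astrocyte-like cells carried several of the factors at once. At least 3 of the 7 were read in 75.4% of these cells, and the median cell had 3. Only 6 of the 739 had none. At least 3 were read in 3.33% of MB/HB astrocyte-like cells and in 0 of 81 CBX cells. In CBX, 86.4% of cells had exactly 1 of the 7 genes. With cells thinned to 100000 reads, the shares with at least 3 were 70.1%, 1.33% and 0%. Of the VISp oligodendrocyte-like cells, 70.04% had none.

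**Figure D4:**
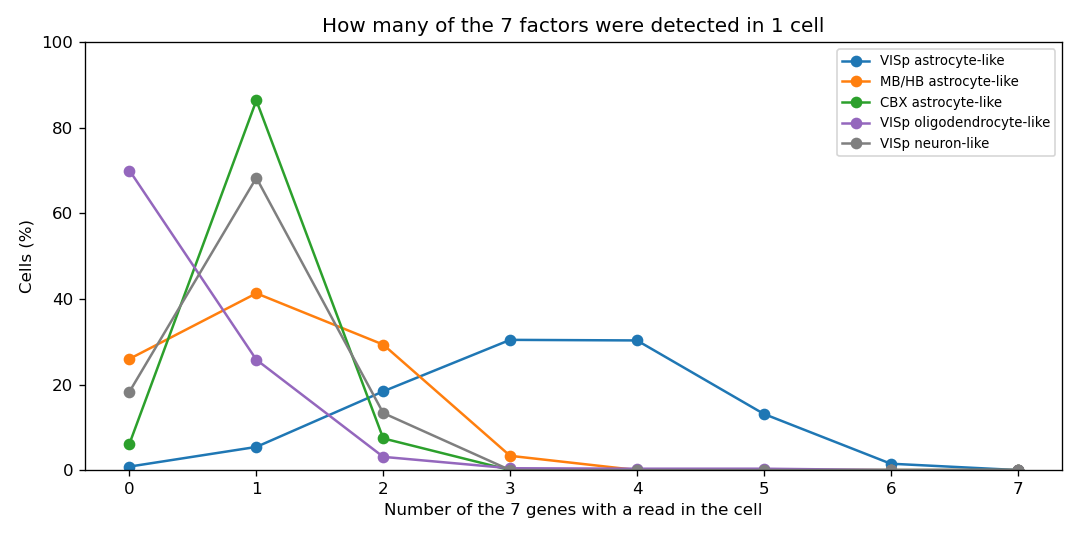
Number of the 7 factors with a read in a cell (horizontal) against the percent of cells of the class (vertical). VISp astrocyte-like cells peaked at 3 and 4 factors (30.4% and 30.3%), CBX astrocyte-like cells at 1 factor (86.4%) and oligodendrocyte-like cells at none (70.04%).

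Within VISp astrocyte-like cells, the share of cells with a pair of factors was close to the product of their shares. Lhx2 and Meis2 were read together in 68.1% of cells, and the product of their shares was 67.9%. Emx2 was read in 47.1% of cells with Lhx2 and in 33.8% of the other cells, or 43.2% and 32.5% after thinning. The rank correlation over these 739 cells was 0.09 for Lhx2 with Emx2 and -0.05 for Lhx2 with Meis2. The cells share mice and plates, and the part of sparse counts in these values was not tested. By rank correlation, the closest pair was Emx2 with its antisense transcript Emx2os, which was read in 48.2% of cells with Emx2 and in 32.8% of the others (rank correlation 0.13). By shares, Emx2os differed more with Meis2 (43.1% of cells with it and 22.6% of the others). In GENCODE M21 the Emx2 gene (chr19:59458372-59465357, plus strand) and Emx2os (chr19:59425104-59458635, minus strand) share the bases 59458372 to 59458635. No statement on strand was used, so reads from those bases cannot be assigned to 1 of the 2 genes. Emx2os was called lower in both tissues as well. It differed by -5.69 for MB/HB (SE 0.49, limma adjusted p 1.82e-10) and by -5.74 for CBX (SE 0.66, limma adjusted p 7.47e-08).

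VISp astrocyte-like cells came mainly from 3 clusters, formed without the 7 genes. Cluster 9 (49 cells of 17 mice, a median of 2861 genes detected against 4123 and 4928 in clusters 0 and 3) had Meis2 in 30.6% of cells, against 84.9% in cluster 0 and 90.6% in cluster 3. Lhx2 was read in 77.6% of cluster 9, 76.1% of cluster 0 and 93.03% of cluster 3. Otx1 was read in 14.3%, 31.5% and 42.2% in that order. After thinning to 100000 reads Meis2 was at 27.1%, 80.6% and 88.9%. The mean Meis2 level was 62.7 CPM in cluster 9 and 243.1 CPM in cluster 0, while Lhx2 averaged 292.3 and 168.5 CPM. These are descriptions of clusters and were not tested.

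The vector is the treatment named in the labels, and the next comparison asked whether the factors differed among vectors within VISp astrocyte-like cells. Of 7 vectors with 2 mice each, none of the 7 genes was called by limma's F-test (adjusted p 0.949 to 0.993). Of all 2341 genes tested, 0 were called (0%), and 4.53% had an unadjusted p under 0.05. With 2 mice per vector, the absence of a call shows little. The vectors with 1 mouse were not tested. Mice of the same vector could differ widely. With eHGT_374m, Emx2 was at 82.6 CPM in 1 mouse and 9.88 CPM in the other, and with 3xCore2(390m) it was at 92.9 and 14.8 CPM. Lhx2 in those mice was 160.3 and 163.98 CPM for eHGT_374m and 280.7 and 158.2 CPM for 3xCore2(390m).

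**Figure D5:**
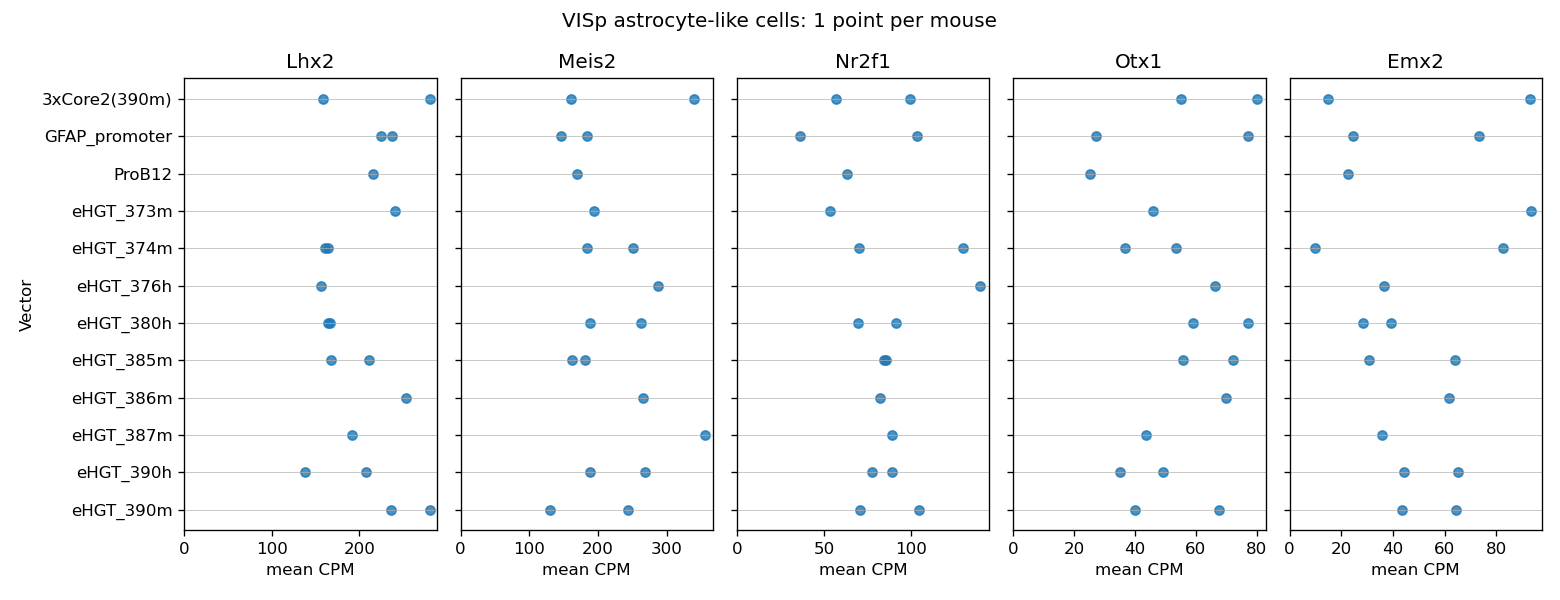
Mean CPM of 5 factors in VISp astrocyte-like cells, with 1 point per mouse and 1 row per vector. Emx2 differed within eHGT_374m (82.6 and 9.88 CPM) nearly as far as over all mice (9.88 to 93.4 CPM), and no factor differed among vectors by limma's F-test.

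The next comparison set VISp oligodendrocyte-like against astrocyte-like cells. All 7 genes were lower in oligodendrocyte-like cells and passed the test, in a comparison where 36.2% of the 2654 genes tested were called lower and 20% higher. Their median difference was -4.61, beside -0.23 over all genes. Lhx2 in the 22 oligodendrocyte mice ran from 0.0806 through 4.49 to 9.43 CPM (difference -5.29, SE 0.20, limma adjusted p 4.93e-28). Otx1 was at 0 in 19 of the 22 mice and reached 1.21 CPM (difference -5.64, SE 0.17, limma adjusted p 9.93e-32). Neither gene's range overlapped that of the astrocyte-like cells. Meis2 ran from 0.135 through 9.08 to 33.1 CPM, and was read in 18.3% of these cells, in 10.3% at 10 CPM or more. Per kilobase of exon, Lhx2 (1.22 CPM) was above Meis2 (0.893 CPM). Its difference was -4.59 (SE 0.24, limma adjusted p 3.13e-22) and that of Nr2f1 was -4.61 (SE 0.25, limma adjusted p 2.06e-21). Emx2, Dmrta2 and Emx1 differed by -4.90, -2.20 and -0.73 (limma adjusted p 5.99e-22, 3.29e-09 and 0.0112). Emx1 was at 0 in 20 of 22 oligodendrocyte mice, so its small difference lies between groups that are both near 0. No vector gave mice to both sides of this comparison, so class and vector cannot be told apart.

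The low levels in oligodendrocyte-like cells can be set beside those of astrocyte markers. In VISp oligodendrocyte-like cells the 12 astrocyte markers stood at 0.869% to 4.26% of their VISp astrocyte-like level, with a median of 1.94%. On the same measure Lhx2 stood at 2.57%, Emx2 at 1.88%, Otx1 at 0.628%, Dmrta2 at 0.514% and Nr2f1 at 3.93%. Meis2, at 4.77%, and Emx1, at 6.32% of a level that was itself only 1.60 CPM, were above the highest of the markers, Gfap, at 4.26%. Leaving out the 60 oligodendrocyte-like cells with RNA of another class, Meis2 was read in 16.97% and Lhx2 in 6.04% of the remaining 878 cells, and Otx1 in none. The part of carried-over RNA in these low values was not tested.

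In VISp neuron-like cells, Nr2f1 was the only one of the 7 present in most cells. It was read in 80% (48 of 60), or 65% after thinning, at 30.8 and 33.6 CPM in the 2 mice with enough cells. Those 2 values were below all 19 astrocyte-like mice, the lowest of which had 36.2 CPM. Its log2 difference was -1.29 (SE 0.32, limma adjusted p 0.00248), and this call was lost without the mouse at 30.8 CPM (limma adjusted p 0.0592) and when log2 values were averaged over cells (limma adjusted p 0.268). Lhx2 was at 0.666 and 0.936 CPM, Meis2 at 0 and 0.179 CPM, and Emx2, Otx1 and Dmrta2 at 0 in both mice. The differences were -6.79 for Lhx2 (SE 0.24, limma adjusted p 9.19e-18), -7.61 for Meis2 (SE 0.29, limma adjusted p 5.89e-17), -5.42 for Emx2 (SE 0.60, limma adjusted p 5.52e-08) and -5.72 for Otx1 (SE 0.37, limma adjusted p 2.85e-12). Dmrta2 and Emx1 did not pass (limma adjusted p 0.0821 and 0.670). In this comparison 5 of the 7 were called lower, where 13.8% of 2562 genes were called lower and 19.9% higher. Both neuron mice had MBP_promoter and no astrocyte mouse had it, so class and vector cannot be told apart.

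The 15 neuron-like cells of MB/HB give counts only, since 1 mouse had at least 10. Meis2 was read in 4 of 15 cells and Nr2f1 in 5. Meis2 averaged 122.5 CPM in the 5 cells with reads of Slc17a6 or Slc17a7, the vesicular glutamate transporters, and no Gad1 or Gad2. Only 2 of those 5 cells had a read of Meis2. It averaged 0.480 CPM in the 7 cells with Gad1 or Gad2 alone, of which 1 had a read of it. Cells with reads of both kinds are in neither mean. With so few positive cells, a difference between the kinds was not tested. No cell of the 15 had a read of Lhx2, Otx1, Emx1 or Dmrta2, and 1 had Emx2.

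Other patterning genes were described from lists of genes with a related role. Of 25 further telencephalic patterning genes, 19 could be tested, and in MB/HB 9 of these were called lower and 4 higher, beside 5.23% and 6.92% of all genes tested. In CBX the shares over all genes were 4.70% lower and 5.04% higher, and they hold for the lists that follow too. Fezf2, a zinc finger factor of the forebrain, was at 0 in all MB/HB and CBX mice and differed by -5.54 from VISp in both (limma adjusted p 1.00e-13 for MB/HB and 1.11e-10 for CBX). Hes5, a Notch target, differed by -2.12 in MB/HB, and Bcl11a by -1.94. The 4 called higher in MB/HB were Nr2f2, the paralogue of Nr2f1 (3.39), Wnt8b (3.10), Otx2 (1.74) and Nfix (0.66). In CBX, 9 of the 19 were called lower, among them Hes5 (-6.16), Fezf2 and Lef1 (-4.74), and Nfix was called higher (0.97). The median of this list was -1.14 in MB/HB and -1.17 in CBX.

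Of 21 cofactors and relatives, 18 could be tested, and 3 of them were higher and 4 lower in MB/HB by the same threshold. Meis1, the paralogue of Meis2, was higher by 2.12 (SE 0.40, limma adjusted p 2.87e-04), opposite in sign to Meis2. Ldb2 (4.19) and Lmo2 (2.29) were also higher. Summed endothelial markers reached 957.1 CPM and mural markers 1315 CPM in an MB/HB mouse, against at most 26.6 and 105.8 CPM over VISp mice. Without cells with RNA of another class these reached 32.4 and 68.1 CPM in MB/HB, and the differences were 4.79 for Ldb2 (limma adjusted p 2.21e-08), 3.45 for Nr2f2 (limma adjusted p 6.54e-08) and 2.01 for Meis1 (limma adjusted p 8.77e-04), while Lmo2 was no longer called (0.66, limma adjusted p 0.330). Among the lower were Emx2os, the LIM cofactor Ldb1 (-1.50) and Lmo4 (-1.41). In CBX, 3 were called lower, among them Emx2os and Lmo4 (-1.58), and none higher. The median of this list was 0.26 in MB/HB and 0.16 in CBX.

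Of 30 posterior patterning genes, 24 could be tested. In MB/HB 16 were called higher, beside 6.92% of all genes tested, led by Irx5 (4.72), Pax3 (4.68), Hoxb3 (4.16), Irx3 (3.82) and Hoxa5 (3.48), 1 was called lower, Zic5 (-3.31), and 7 did not pass. In CBX 9 were called higher, beside 5.04% of all genes, led by Zic4 (6.95), Pax3 (6.29), Zic1 (5.95), Irx5 (5.53) and En2 (4.07), and none lower, so that 15 did not pass. Between CBX and MB/HB, 5 were higher, led by Zic4 (4.97), and 5 lower, led by Hoxb3 (-4.17). Over all genes tested, 3.27% were called higher and 4.06% lower in CBX than in MB/HB. The list's median difference was 1.53 in MB/HB and 0.38 in CBX against VISp.

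The genes whose levels were most like each factor were ranked by Pearson r over 50 mouse-by-class values, among 2890 other genes. These values share tissues, classes and vectors, and r is a description. The genes compared came from the listed genes and a random draw of the other columns. Listed genes such as Fezf2 and Hes5 are therefore over-represented among them. Lhx2 was most like Chrdl1 (0.94), Fezf2 (0.94), Emx2 (0.92), Otx1 (0.92) and Rpe65 (0.91). Emx2 was most like Emx2os (0.95), Otx1 (0.95), Fezf2 (0.94), Chrdl1 (0.94) and Lhx2 (0.92). Otx1 was most like Fezf2 (0.95), Emx2 (0.95), Prelp (0.94), Gm26512 (0.94) and Scara3 (0.93). Meis2 was most like Nrarp (0.89), Hes5 (0.86), Otx1 (0.85), Gm26512 (0.85) and Prelp (0.85), and Dmrta2 most like Fezf2 (0.81), Otx1 (0.78), Lhx2 (0.77), Kank2 (0.77) and Emx2 (0.77). Nr2f1 had a different set, with Mt3 (0.94), Luzp2 (0.93), Tmem47 (0.93) and Sparcl1 (0.93) among its closest. Emx1 had no close match: its best were Olfr1535 (0.73), 4930544I03Rik (0.57), Akr1c21 (0.57), Ip6k2 (0.54) and A730049H05Rik (0.54).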

How the data were processed

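Single SYFP2-positive cells were sequenced after SMARTerv4 amplification, per the labels' protocols. STAR and mm10 are named in the submitters' processing notes, and the annotation is not given in the sources used here. The deposited table holds CPM with 1 line per cell. Every line summed to 1000000, and each of the 9484843 values above 0 was a whole multiple (within 0.001) of the smallest in its line, which was taken as 1 read and gave the depth (median 434101.5 reads, 57873 to 1455022). Tests used CPM, with reads summed over cells as an alternative. Of the 32245 gene columns, 4800 could enter tests (166 listed, 4634 drawn at random), and the other 27445 entered only line sums, depth and the number of genes detected.

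Classes came from Leiden clustering (leidenalg 0.10.2, resolution 1, 2000 variable genes, 30 components, 15 neighbours) without the 7 genes and the described patterning lists. A cluster took the name of 1 of 10 marker lists. Doublets were not called, and clusters with over 50% of another list's markers stayed unnamed. Of 1989 cells in named clusters, 1980 had the same class when it was called in each cell. The mouse was the replicate. A gene entered a test when its mean CPM reached 1 in 2 or more mouse values. Tests used limma 3.58.1 (trend, two-sided) in R 4.3.3 on log2(mean CPM + 1), with Benjamini-Hochberg adjustment at 0.05 over all genes tested. The pseudocount of 1 understates changes of low genes. The 3 tissues shared 1 model. The fits were run on simulated normal values with the same spread in every group. Groups in which every mouse is at 0 are not covered by that simulation. Coordinates are from GENCODE M21 and RefSeq on GRCm38, the build also called mm10. No correction for ambient RNA was made. All 7 genes were described, and of each list at most 5 called genes per direction were named. Some listed genes that this rule would name are not reported here. The members and lists were chosen with earlier results of these data known.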

Additional observations from a re-analysis of the deposited data

Results flagged for a closer look

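Emx2 in MB/HB astrocyte-like cells stood apart in 1 of 4 mice. That mouse, with MGT_E160m, had 1.24 CPM, from 1 of its cells at 44.7 CPM, while the others had 0.0985, 0 and 0 CPM, and the gap took 0.884 of the range of the log2 values, above the critical value of 0.829 for 4 samples. About 1 in 20 such groups is picked out by chance, and 5 genes with any spread were examined. No other factor passed that value in the 4 mice.

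The 48 VISp cells of the unnamed cluster entered no comparison. They carried Nr2f1 in 89.6% of cells, Meis2 in 70.8%, Lhx2 in 58.3%, Emx1 in 45.8%, Emx2 in 16.7% and Otx1 in 12.5%, all above the 6.25% that 0 of 48 cells would allow. Emx1 was thus read far more often there than in VISp astrocyte-like cells (1.76%). Of these cells, 41 had a read of Slc17a7, the vesicular glutamate transporter of cortical excitatory neurons, and all 22 cells with Emx1 were among them. The mean of Emx1 over those 41 cells was 18.4 CPM. The cluster also carried markers of oligodendrocytes, and the presence of more than 1 cell in a library was not tested.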

How the results depend on the processing

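No paired analysis was possible because replicate numbers are mouse numbers, no mouse was in more than 1 tissue or vector, and no mouse had 10 cells of both classes that were compared. Averaging log2 values over cells raised the share of tested genes that were called to 22.9% for CBX minus VISp (otherwise 9.74%), 24.4% for CBX minus MB/HB (7.34%) and 62.5% for neuron-like minus astrocyte-like cells (33.7%). Higher calls then rose from 51.7% to 87.2%, from 44.6% to 85.3% and from 59.1% to 87.1% of all calls, and the median of all genes in the neuron comparison moved to 0.61. Without a filter on low values, 64.2% of calls were higher for CBX minus VISp and 58.6% for CBX minus MB/HB. On plate AB-S40319 alone, 1.44% were called for CBX minus VISp, 5.88% for MB/HB minus VISp (otherwise 12.2%) and 0.88% for CBX minus MB/HB, with 19.4%, 21.3% and 21.1% of calls higher. Leaving out 1 mouse at a time gave 4.78% to 10.5%, 9.18% to 12.4% and 3.41% to 8.19% in the 3 tissue comparisons (CBX minus VISp, MB/HB minus VISp, CBX minus MB/HB) and 21.7% to 22.1% in the neuron comparison when a neuron mouse was left out. The lowest tissue values came without the CBX mouse with 38 cells, and without the one with 43 cells they were 5.40% and 4.18%. Among vectors, 0.168% were called with no filter, 0.0427% with log2 averaged over cells and 0% to 0.0432% without 1 mouse (0.0432% without the eHGT_374m mouse at 9.88 CPM of Emx2). For the oligodendrocyte comparison, all 9 alternatives kept every call of the 7 genes.

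Beyond the calls named in the report, Dmrta2 was called for CBX minus VISp with a pseudocount of 0.1 CPM (-4.83, limma adjusted p 0.0363) and for neuron-like cells under 3 alternatives. Otx1 was called for CBX minus MB/HB with that pseudocount (-3.29, limma adjusted p 0.0168). No called difference changed sign. Thinning moved 3 of 35 shares, and a minimum of 10 CPM moved 4, by more than the SD over mice. With 2 CBX mice and 2 neuron mice, the absence of a call shows little.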

Other observations

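En2, a homeobox gene of the midbrain and hindbrain, was also read in VISp oligodendrocyte-like cells, in 10.02% of them. Its log2 level was 2.63 ± 1.23 (SD, n = 22 mice) there and 0.06 ± 0.12 (SD, n = 19 mice) in VISp astrocyte-like cells, a difference of 2.58 (SE 0.29, limma adjusted p 7.35e-11). In CBX astrocyte-like cells it stood at 4.13 ± 0.29 (SD, n = 2 mice). Zic5 and Zic2 are also on the posterior list, but neither was called higher in MB/HB or CBX than in VISp, and Zic5 was called lower in MB/HB. In VISp, Zic5 was at 4.95 ± 0.84 (SD, n = 19 mice) in astrocyte-like cells and 0.46 ± 0.60 (SD, n = 22 mice) in oligodendrocyte-like cells (limma adjusted p 1.96e-21). Zic2 was at 1.39 ± 1.04 (SD, n = 19 mice) and 0 in the same order (limma adjusted p 3.86e-07).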
